A study of Mus musculus with 12 samples.

Results

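The mouse testis cell lines TM4 and TM3 were compared after both had been exposed to MEHP, the monoester that the body forms from the plasticizer DEHP. The comparison used 6 of the 12 libraries of the study, the 3 TM4 MEHP and the 3 TM3 MEHP libraries, and covered 15700 of the 55004 genes in the authors' table, those with enough counts to be tested. TM4 MEHP and TM3 MEHP cells had received 100 uM MEHP for 72 h, and TM4 DMSO and TM3 DMSO cells, with 3 libraries each, had received 0.1% of the solvent DMSO for the same 72 h. The labels name TM4 as a Sertoli and TM3 as a Leydig cell line and give no other genotype or agent. Some label fields call the lines rat, while the organism field, the gene identifiers and the genome build are mouse, and the lines are treated as mouse here. The gap between the lines under MEHP, written as the log2 fold change of TM4 over TM3, was set against the same gap under DMSO to find amounts on which the exposed lines stood closer together or further apart. Each line is a single established line, so a difference between TM4 and TM3 is not a difference between cell types of the testis in general. Nothing in the labels tells whether the 3 libraries of a group stem from separate cultures. The p-values therefore reflect library-to-library spread, which may be technical.

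Sertoli cells sit in the wall of the seminiferous tubule and sustain the germ cells, and Leydig cells lie between the tubules and make testosterone. MEHP is known as a ligand of the PPAR receptors, nuclear receptors that sense fatty acids, pair with RXR and switch on genes for lipid storage, transport and oxidation. Phthalate monoesters are known in rodent testis for effects on Sertoli cells, including their cytoskeleton and junctions, and on steroid synthesis in Leydig cells.

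The libraries held between 15771908 and 18203115 counts. Levels are given as CPM, counts scaled to a common library size with TMM factors, which correct for composition. With 3 counts taken as the limit of what a count of 0 allows, a gene without counts could reach 0.165 to 0.190 CPM, a bound for counting error alone. In RNA from whole cultures, fewer cells that use a gene and less of its RNA per cell cannot be told apart.

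Markers of the labelled cell types went partly with the labels and partly against them, and several defining ones were at or near 0. Of 16 Leydig cell markers 8 had enough counts to be tested, and Hsd3b1, Hsd3b6, Hsd17b3, Lhcgr and Prlr were at 0 in all 12 libraries. Star, the mitochondrial cholesterol carrier of steroid-making cells, had 7.77, 5.55 and 6.32 CPM in TM4 MEHP and 7, 7.12 and 6.69 CPM in TM3 MEHP. Its groups overlapped, and the gap did not pass the test (-0.09 ± 0.16 on the log2 scale, SE, edgeR adjusted p = 0.622). Of the 8 tested Leydig markers 0 were higher and 5 lower in TM4 MEHP (39.9% and 40.4% of all tested genes), the direction of the labels, with a median gap of -0.72. These included the growth factor gene Igf1, at 7.79 CPM in TM4 MEHP and 127 CPM in TM3 MEHP, the receptor gene Pdgfra, at 87.2 and 606 CPM, Vcam1, at 51.8 and 96.9 CPM, and Nr2f2, at 85.1 and 120 CPM. Of 29 Sertoli cell markers 18 were tested, and Fshr, Dmrt1, Cst9, Cst12 and Nr0b1 were at 0 in every library. Wt1, a transcription factor of Sertoli and mesothelial cells, had 0, 0.0550 and 0.115 CPM in TM4 MEHP, the line labelled Sertoli, and 171, 167 and 169 CPM in TM3 MEHP. Every TM3 library thus lay far above every TM4 library for a gene that marks the other label. Mesothelial and epithelial markers were lower in TM4 MEHP for 8 of 9 tested members, against 40.4% of all tested genes. Upk3b had 0.119, 0.110 and 0 CPM in TM4 MEHP and 910, 881 and 888 CPM in TM3 MEHP, and the keratin gene Krt7 had 0.653, 0.715 and 0.689 CPM against 185, 191 and 185 CPM. The exception was Msln, at 287 CPM in TM4 MEHP and 239 CPM in TM3 MEHP, with a gap of 0.27 ± 0.05. Endothelial, leukocyte and germ cell lists summed to 1.27, 14.9 and 0.42 CPM in TM4 MEHP and to 2.58, 58.7 and 30.3 CPM in TM3 MEHP, where Cd14 alone gave 53.2 CPM and Zbtb16 27.6 CPM. The lines are therefore called TM4 and TM3 below.

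**Figure D1:**
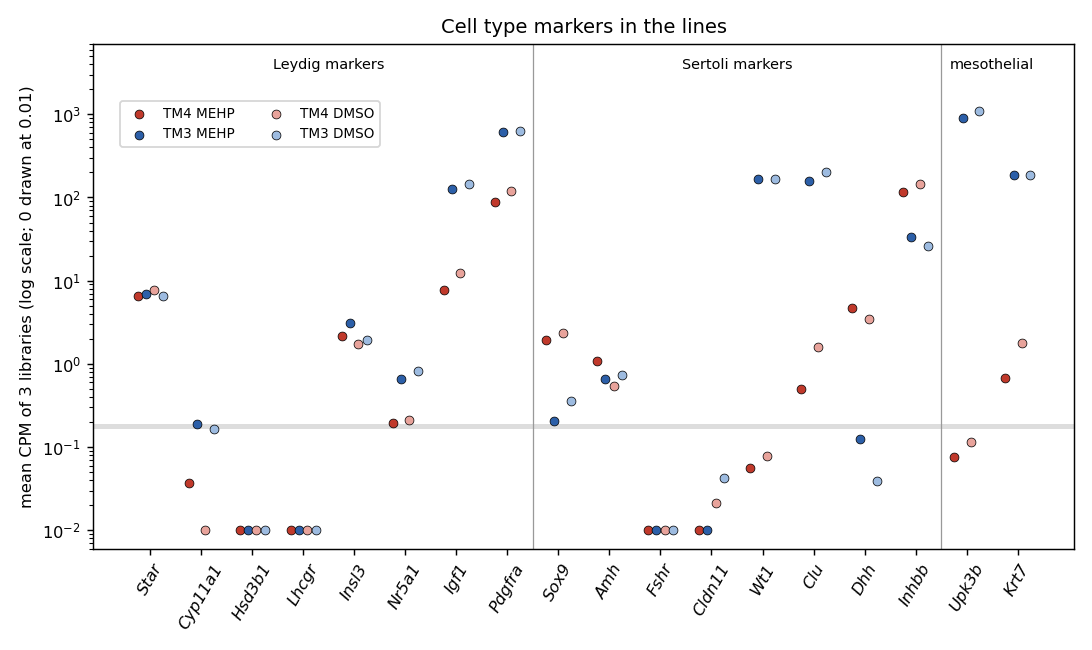
Mean CPM of 3 libraries (vertical log axis, a value of 0 drawn at the bottom) for Leydig, Sertoli and mesothelial markers in TM4 MEHP, TM3 MEHP, TM4 DMSO and TM3 DMSO; the grey band is the range of the 3-count limit. Hsd3b1, Lhcgr and Fshr stand at 0 in all groups, and Wt1 and Upk3b are high in TM3.

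Under MEHP the lines differed in most of what they transcribed. Of 15700 genes 12609 were called (80.3%, edgeR quasi-likelihood F-test, Benjamini-Hochberg adjusted p under 0.05), 6270 higher and 6339 lower in TM4 MEHP. The libraries of the 2 lines did not overlap in 80.8% of the genes under MEHP and in 82.9% under DMSO. When the gap itself was tested against 2-fold, 5478 genes passed (34.9%), 2246 higher in TM4 MEHP (14.3%) and 3232 lower (20.6%). Gaps of at least 4-fold were found for 3423 called genes and gaps of at least 16-fold for 1543. At the other end, the 95% interval of the gap lay within 1.5-fold in either direction for 3545 genes (22.6%, limma-voom), so these amounts were alike in the exposed lines within that margin.

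The next genes were picked for the size of their gap, among protein-coding genes with at least 10 counts in each of the 6 exposed libraries. Ptpn5, a tyrosine phosphatase best known from neurons, had 385, 376 and 375 CPM in TM4 MEHP and 0.883, 1.79 and 0.813 CPM in TM3 MEHP, a gap of 8.32 ± 0.11 (SE). Nes, the intermediate filament protein of progenitor cells, had 116, 110 and 113 CPM against 1.45, 0.718 and 0.813 CPM, and the homeobox gene Hoxb9 had 225, 230 and 241 CPM against 4.10, 4.19 and 3.56 CPM. In all 3 genes every TM4 MEHP library lay above every TM3 MEHP library by more than 50-fold. The glutamine transporter gene Slc38a1, the glutathione transferase gene Gstp1, Creb5, Angptl6 and the myosin light chain gene Myl9 were also among them, with gaps of 5.69 to 6.80. Gstp1 has a near-identical neighbour copy, so its counts are uncertain.

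Among genes lower in TM4 MEHP, the central complement gene C3 had 1.13, 1.54 and 1.21 CPM in TM4 MEHP and 2117, 1987 and 2083 CPM in TM3 MEHP. Its gap was -10.63 ± 0.10, against -9.56 ± 0.09 under DMSO, and this widening passed the test (-1.07 ± 0.20, edgeR adjusted p = 0.000130). TM4 DMSO stood at 3.35, 2.94 and 1.96 CPM, and TM3 at means of 2062 CPM under MEHP and 2087 CPM under DMSO. As a difference of mean CPM the gap did not widen, at -2061 CPM under MEHP and -2084 CPM under DMSO. C3 thus kept the same order under either treatment, with TM3 far above. The receptor ligand gene Gas6, the basement membrane gene Nid2, Myrf, the Y-linked helicase gene Ddx3y, Krt7 and the myosin kinase gene Mylk had gaps of -9.52 to -7.43.

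Some genes were absent from one exposed line. At 5 CPM or more in TM3 MEHP, 92 genes had no count in any TM4 MEHP library, and 65 of these had none in TM4 DMSO either. The reverse held for 71 genes in TM3 MEHP, 56 of them also without a count in TM3 DMSO. Efemp1, a matrix glycoprotein, had 249, 245 and 252 CPM in TM3 MEHP and 0 in TM4 MEHP, which is at least 1446-fold lower in TM4. The carcinogen-metabolizing enzyme gene Cyp1b1 had 138, 139 and 139 CPM in TM3 MEHP and 0 in TM4 MEHP, at least 807-fold lower in TM4. Kank4, Zbtb7c, the cationic amino acid transporter gene Slc7a2 and the galactosyltransferase gene B4galt4 were likewise at 0 in TM4 MEHP and had means of 96.0 to 181 CPM in TM3 MEHP. In the other direction stood Thsd7a, Garem1, the surface antigen gene Ly6a and the relaxin receptor gene Rxfp1, at 0 in TM3 MEHP and at means of 60.7 to 132 CPM in TM4 MEHP.

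Cdkn2a, which encodes the cell cycle inhibitors p16 and p19ARF, was missing from TM3. It had 273, 304 and 348 CPM in TM4 MEHP and no count in TM3 MEHP, at least 1663-fold higher in TM4. Its neighbour Cdkn2b, the gene of the inhibitor p15, had 52.8, 60.7 and 57.4 CPM in TM4 MEHP and again no count in TM3 MEHP, at least 307-fold higher. Both genes also had no count in the 3 TM3 DMSO libraries. They lie close together on chromosome 4 of mm10, Cdkn2a at 89274471 to 89294653 and Cdkn2b at 89306299 to 89311039. Mtap, nearby at 89137122 to 89181081, had 49.5 ± 3.41 CPM in TM4 MEHP and 319 ± 8.74 CPM in TM3 MEHP (SD, n = 3), so the lack of counts did not reach it. Dmrta1, on the other side, had 0.0579 ± 0.0594 CPM in TM4 MEHP and 0 in TM3 MEHP, under the 3-count limit in both lines. These neighbours were looked up after the values of Cdkn2a had been seen.

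Transcripts of the Y chromosome, also singled out after their values were seen, were low in TM4. Of 21 tested Y-linked genes and gene models, 13 were models without annotation. More than 2-fold lower in TM4 MEHP were 19 of the 21, against 20.6% of all tested genes, and higher was 1, Eif2s3y, against 14.3%. Ddx3y had 1.19, 0.935 and 1.21 CPM in TM4 MEHP and 409, 396 and 404 CPM in TM3 MEHP. The histone demethylase gene Kdm5d stood at 0.457 ± 0.0399 CPM in TM4 MEHP and 254 ± 7.94 CPM in TM3 MEHP, and Uty at 0.206 ± 0.155 and 121 ± 4.45 CPM (SD, n = 3). Eif2s3y had 0.824 ± 0.212 CPM in TM4 MEHP and no count in TM3 MEHP. Each of these genes has a close X-linked relative, and how reads shared between copies were counted is not given in the sources used here. The X-linked relative Ddx3x differed far less, at 324 ± 4.17 CPM in TM4 MEHP and 297 ± 4.19 CPM in TM3 MEHP. A retroviral model without a gene name, placed on chromosome Y, had 0.780 ± 0.282 CPM in TM4 MEHP and 10506 ± 14.7 CPM in TM3 MEHP. Such repeats exist in many copies, so the placement is uncertain.

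The median gap differed between chromosomes and barely between treatments. Over all genes it was 0.00 under MEHP and -0.01 under DMSO. On chromosome 16 the median gap was -0.78 under MEHP and -0.84 under DMSO, and 37.6% of its genes were more than 2-fold lower in TM4 MEHP, against 20.6% of all genes. Chromosome 10 had a median gap of -0.45 under MEHP and -0.46 under DMSO, and chromosome 3 of 0.37 and 0.45. The other autosomes and X had medians from -0.20 to 0.29 under MEHP.

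**Figure D2:**
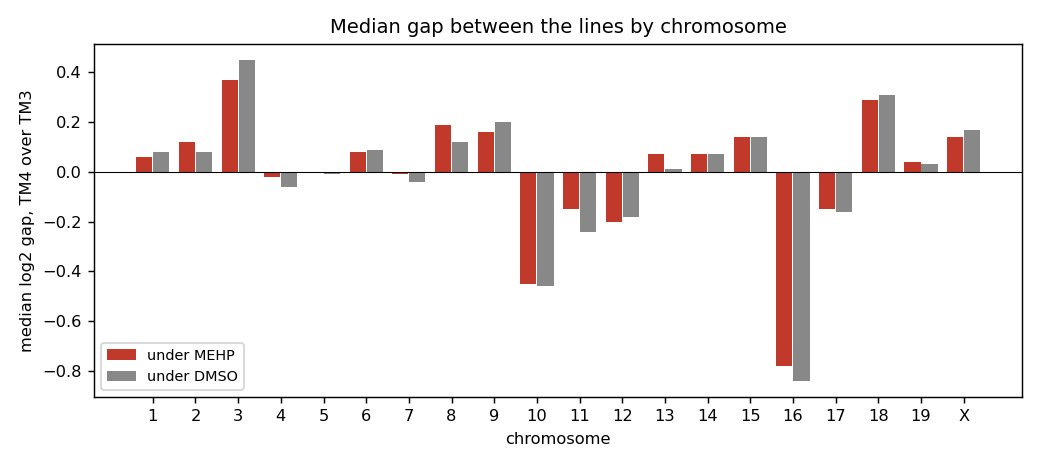
Median log2 gap of TM4 over TM3 (vertical axis) for the tested genes of each autosome and X (horizontal axis), under MEHP and under DMSO. Chromosome 16 has the lowest median (-0.78 under MEHP, -0.84 under DMSO) and chromosome 3 the highest (0.37 and 0.45), with each pair of bars nearly level.

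Set against DMSO, the exposed lines were slightly closer over the whole transcriptome. The median absolute log2 gap was 0.85 under MEHP and 0.96 under DMSO, and the root mean square gap was 2.61 and 2.69. Between single libraries of the 2 lines, the root mean square difference of log2 CPM ran from 2.04 to 2.05 over the 9 MEHP pairs and from 2.11 to 2.12 over the 9 DMSO pairs, so these ranges did not overlap. The 9 pairs of a treatment reuse the same libraries and are not independent of each other. Across genes, the correlation within these pairs was 0.781 to 0.784 under MEHP and 0.771 to 0.774 under DMSO, where genes are not independent replicates. The DMSO gap was called for 12881 genes (82.0%), higher in TM4 DMSO for 40.0% and lower for 42.0%. A gap in the same direction was called under both treatments for 11260 genes, 89.3% of the MEHP calls and 87.4% of the DMSO calls, and gaps in opposite directions for 165.

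The change of the gap, MEHP minus DMSO, was tested in its own right and passed for 4134 genes (26.3%), 2044 positive and 2090 negative. The lines stood closer under MEHP in 2349 of them (15%), further apart in 1084 (6.90%) and in crossed order in 688 (4.38%, with both gaps called in 1.05%), while 13 (0.0828%) had no called gap under either treatment. Among the closer genes the median absolute log2 gap was 0.77 under MEHP and 1.3 under DMSO, and TM4 was above TM3 in 1163 and below in 1186. Among the genes further apart it was 1.09 under MEHP and 0.60 under DMSO, with TM4 above in 475 and below in 609. TM4 moved more than TM3 on the log2 scale in 66.8% of the closer, 69.2% of the further and 67.0% of the crossed genes. The same share over all tested genes was not computed, so whether these classes stand out in this is not known. Of all 4134, 470 changed their gap at least 2-fold. These classes depended on the size of the DMSO gap. Closer were 3.02% of genes with an absolute log2 DMSO gap under 0.5, 25.8% at 1 to 2 and 21.5% at 2 to 4. Crossed were 12.1%, 0.677% and 0.311% of the same genes. The shares of all tested genes given beside the lists below do not take this into account. On the linear scale of mean CPM, 2316 of the 2349 closer genes were also closer and 1038 of the 1084 others also further apart, so the scales disagreed for 33 and 46 genes.

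**Figure D3:**
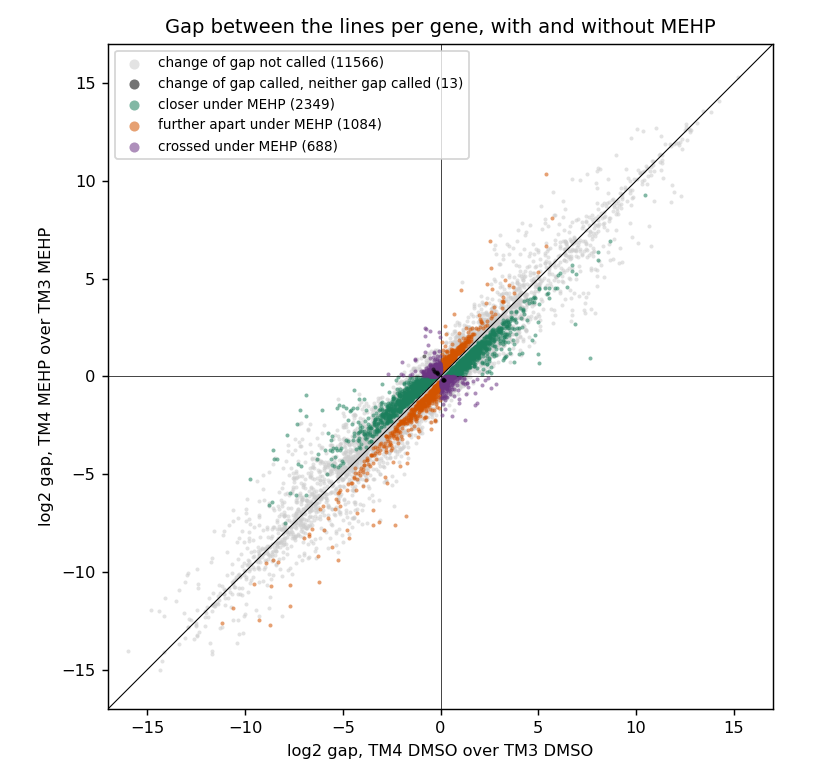
Log2 gap of TM4 over TM3 per gene under DMSO (horizontal axis) and under MEHP (vertical axis) for 15700 tested genes, coloured by whether the change of gap was called; the diagonal marks equal gaps, and fitted gaps of genes with no count in a line depend on the fit. Most points lie along the diagonal, with 2349 genes nearer to 0 under MEHP, 1084 further from 0 and 688 across it.

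Among genes under PPAR control the lines came nearer in several cases and counted as crossed in others. Angptl4, a secreted inhibitor of lipoprotein lipase and a PPAR target, had 50.4, 56.8 and 54.8 CPM in TM4 MEHP and 154, 144 and 147 CPM in TM3 MEHP, and 2.84, 2.89 and 2.53 CPM in TM4 DMSO against 105, 96.3 and 98.1 CPM in TM3 DMSO. TM4 lay below TM3 in every library under both treatments, 2.75-fold under MEHP and 36.1-fold under DMSO. The log2 gap was -1.46 ± 0.06 under MEHP and -5.17 ± 0.09 under DMSO, a change of 3.72 ± 0.12 (SE, edgeR adjusted p = 1.02e-20). As a difference of mean CPM the gap hardly moved, at -94.3 CPM under MEHP and -97.0 CPM under DMSO. Pdk4, the kinase that holds back glucose oxidation, had 39.2, 47.4 and 37.7 CPM in TM4 MEHP and 52.1, 48.3 and 53.7 CPM in TM3 MEHP, with a gap of -0.31 ± 0.08 against -1.75 ± 0.11 under DMSO. For Pdk4 the difference of mean CPM shrank as well, to -9.91 CPM under MEHP against -19 CPM under DMSO.

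Plin2, the coat protein of lipid droplets, changed its order between the lines. It had 117, 127 and 129 CPM in TM4 MEHP and 101, 98.9 and 106 CPM in TM3 MEHP, but 56.1, 60.8 and 55.5 CPM in TM4 DMSO and 114, 105 and 100 CPM in TM3 DMSO. The groups did not overlap under either treatment, and the gap was 0.29 ± 0.06 under MEHP and -0.89 ± 0.06 under DMSO (change 1.18 ± 0.09, edgeR adjusted p = 2.14e-11).

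Over the 21 tested PPAR targets, of 32 listed, 8 were higher and 9 lower in TM4 MEHP (39.9% and 40.4% of all tested genes). The median gap was -0.06 under MEHP and -0.39 under DMSO. The change of gap passed for 13, all positive, against 13.0% of all genes with a positive change. Of these 5 were closer, 3 further apart and 5 crossed, against 15%, 6.90% and 4.38% of all tested genes. The number crossed was 2 without TM3 MEHP replicate 1 and 3 without TM3 DMSO replicate 1. The closer ones were Angptl4, Pdk4, the carnitine transferase genes Cpt1a and Cpt2 that admit fatty acids to mitochondria, and Hadha of the trifunctional protein. The crossed ones were Plin2, Acadvl, Acaa1a, Hadhb and the peroxisome division gene Pex11a. Acadl, Acot2 and Fgf21 stood further apart, with TM4 above TM3. The change of gap no longer passed without 1 library for Acot2 (any of 6 libraries, edgeR adjusted p of 0.0514 to 0.122), Pex11a (any of 4, 0.0505 to 0.0577), Acaa1a (TM3 DMSO replicate 1, 0.0663) and Hadhb (TM3 DMSO replicate 3, 0.0510). The thioesterase gene Acot1 had 21.0, 23.2 and 21.8 CPM in TM4 MEHP and 0.0631, 0 and 0 CPM in TM3 MEHP.

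Among receptors and cofactors, 3 of 10 tested genes were higher and 5 lower in TM4 MEHP, against 39.9% and 40.4% of all tested genes. None of the 10 passed the test against 2-fold. Ppara and Pparg, the receptors best known as targets of MEHP, had too few counts to be tested. The receptor gene Ppard had 66.8 CPM in TM4 MEHP and 59.7 CPM in TM3 MEHP, a call that was lost without TM3 MEHP replicate 3, and the partner receptor gene Rxra had 48.8 and 76.9 CPM with a gap of -0.66 ± 0.07, closer than the -1.12 under DMSO. Of 31 tested genes of fatty acid oxidation, a list that shares members with the PPAR targets, 10 were higher and 11 lower in TM4 MEHP, no larger a share than the 39.9% and 40.4% of all tested genes, with a median gap of -0.06 under MEHP and -0.27 under DMSO. Their change of gap was positive in 16 and negative in 1, Acsl3, with 9 closer, 3 further apart and 5 crossed, against 15%, 6.90% and 4.38% of all tested genes. The crossed number was 3 without TM3 MEHP replicate 1, TM3 DMSO replicate 1 or TM3 DMSO replicate 3. Etfb, a subunit of the electron carrier of beta-oxidation, had 6.76, 6.05 and 6.09 CPM in TM4 MEHP and 12.5, 10.8 and 9.88 CPM in TM3 MEHP, with a gap of -0.81 ± 0.14 against -2.14 ± 0.16 under DMSO. Ech1, an isomerase for unsaturated fatty acids, had 111, 113 and 129 CPM in TM4 MEHP and 78.5, 80.5 and 71.0 CPM in TM3 MEHP, where the DMSO groups nearly met with a gap of -0.05 ± 0.07.

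**Figure D4:**
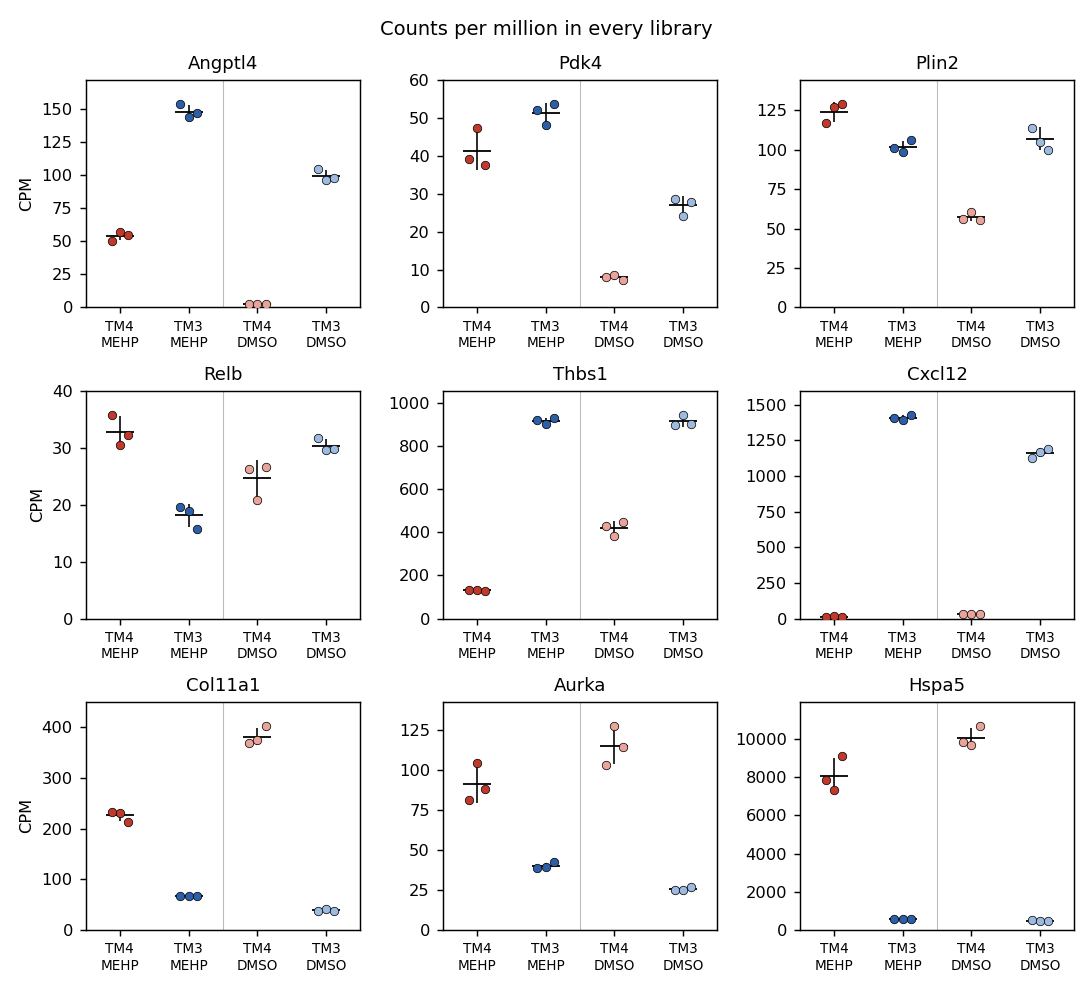
CPM (vertical axes from 0) in each of the 12 libraries for 9 genes, in the order TM4 MEHP, TM3 MEHP, TM4 DMSO, TM3 DMSO; points are libraries, horizontal marks are means and vertical bars are SDs (n = 3). Angptl4, Pdk4, Col11a1, Aurka and Hspa5 have a smaller fold between the lines under MEHP, Thbs1 and Cxcl12 a larger one, and Plin2 and Relb change order.

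The genes of late cell cycle moved together. All 32 genes of G2 and mitosis had a negative change of gap that passed the test, against 13.3% of all genes with a negative change. Closer under MEHP were 27 of them, against 15% of all genes. In TM4 MEHP 25 were higher and 3 lower (39.9% and 40.4% of all tested genes), whereas 31 were higher in TM4 DMSO (40.0%). The median gap was 0.72 under MEHP and 1.35 under DMSO. Their summed level was 3863 CPM in TM4 MEHP and 2815 CPM in TM3 MEHP, and 4256 CPM in TM4 DMSO against 1938 CPM in TM3 DMSO. Aurka, a kinase that builds the spindle, had 81.3, 104 and 87.7 CPM in TM4 MEHP and 38.4, 39.1 and 42.1 CPM in TM3 MEHP, with a gap of 1.19 ± 0.08 against 2.17 ± 0.08 under DMSO. Ect2, which directs the cleavage furrow, narrowed to 0.98 ± 0.06 under MEHP, against 1.96 ± 0.07 under DMSO. Top2a, the topoisomerase that untangles chromosomes, had 566, 611 and 529 CPM in TM4 MEHP and 514, 538 and 534 CPM in TM3 MEHP. These groups overlapped and the MEHP gap did not pass (0.11 ± 0.06, edgeR adjusted p = 0.0837), while the change from the DMSO gap of 0.99 ± 0.06 did (-0.88 ± 0.08, edgeR adjusted p = 1.15e-09). Cdk1, Cenpf, Kif11 and Ccnb2 counted as crossed by the sign of their fitted gaps, at -0.38, -0.21, -0.09 and -0.00 under MEHP. The MEHP gaps of Kif11 and Ccnb2 did not pass, and that of Cenpf no longer passed without TM4 MEHP replicate 3. Mki67 was the 1 gene further apart, at 216 CPM in TM4 MEHP and 303 CPM in TM3 MEHP, and it was no longer called further apart when any one of 9 of the 12 libraries was left out (TM4 MEHP replicate 2, TM3 MEHP replicates 1 and 2, or any DMSO library).

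This group was picked for a look at promoters because its genes changed in 1 direction, and the letters were not tested against that change. Of 27 members with a RefSeq promoter window (GRCm38.p6, 250 bases before to 50 after the listed start), 21 hold TTTGAA on either strand, the core of the cell cycle homology region (CHR). That is 77.8%, against 12% of the 9861 windows of tested genes, and CCAAT is in 85.2% against 39.4%. The windows of Top2a (chr11:99024140-99024439, minus strand) and of the mitotic kinase gene Plk1 (chr7:122159185-122159484, plus strand) are given 5′ to 3′ with each TTTGAA, or TTCAAA where it lies on the other strand, in capitals.
Top2a: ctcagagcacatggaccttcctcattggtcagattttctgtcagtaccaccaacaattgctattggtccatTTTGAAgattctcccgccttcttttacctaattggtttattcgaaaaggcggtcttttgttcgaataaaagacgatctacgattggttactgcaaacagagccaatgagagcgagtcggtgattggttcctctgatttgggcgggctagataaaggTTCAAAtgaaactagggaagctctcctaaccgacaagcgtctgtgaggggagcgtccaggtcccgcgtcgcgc
Plk1: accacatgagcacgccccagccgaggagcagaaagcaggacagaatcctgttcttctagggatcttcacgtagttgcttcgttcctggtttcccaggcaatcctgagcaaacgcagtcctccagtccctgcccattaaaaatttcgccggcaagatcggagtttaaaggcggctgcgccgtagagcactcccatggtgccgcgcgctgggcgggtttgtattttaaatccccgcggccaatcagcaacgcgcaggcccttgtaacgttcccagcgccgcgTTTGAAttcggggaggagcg
Plk1 had 63.6 CPM in TM4 MEHP and 29.1 CPM in TM3 MEHP, with a gap of 1.13 under MEHP and 1.90 under DMSO. A match is a description of letters and not a measured site. Here and below, list members are known genes of their process, so a share above that of all windows says nothing about the gap or its change.

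S phase genes were mostly lower in TM4 MEHP. Of 36 tested, 6 were higher and 26 lower in TM4 MEHP, against 39.9% and 40.4% of all tested genes. The median gaps were -0.43 under MEHP and -0.35 under DMSO. The change passed for 4 with a positive and 10 with a negative sign, against 13.0% and 13.3% of all tested genes. The thymidine kinase gene Tk1 stood at 23.5 CPM in TM4 MEHP and 86.7 CPM in TM3 MEHP, and the helicase gene Mcm4 at 69.6 and 160 CPM.

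Chaperones of the endoplasmic reticulum (ER) were higher in TM4, most of them by less under MEHP than under DMSO. These proteins fold secreted and membrane proteins and are induced by the sensors ATF6, IRE1 and PERK when folding lags. Of 22 tested genes 21 were higher and 0 lower in TM4 MEHP, against 39.9% and 40.4% of all tested genes. Dnajb11, at 73.4 CPM in TM4 MEHP and 73.3 CPM in TM3 MEHP, did not pass. The summed level was 20788 CPM in TM4 MEHP and 5022 CPM in TM3 MEHP, and 25402 CPM in TM4 DMSO against 4890 CPM in TM3 DMSO. Hspa5, the main ER chaperone BiP, had 7839, 7331 and 9104 CPM in TM4 MEHP and 549, 547 and 538 CPM in TM3 MEHP, and the lines were 14.9-fold apart under MEHP and 21.1-fold under DMSO (change of log2 gap -0.51 ± 0.09, edgeR adjusted p = 6.01e-05). All 3 TM4 MEHP libraries lay more than 10-fold above the TM3 MEHP libraries. The median gap was 1.51 under MEHP and 1.73 under DMSO. Closer were 15 genes, against 15% of all tested genes and 25.8% of those with an absolute log2 DMSO gap of 1 to 2. Among the closer ones were Calr at 2.31 against 2.63, Hyou1 at 2.72 against 3.12 and Manf at 2.77 against 3.22. The 1 gene further apart was the translocon gene Sec61b, a call that was lost without TM4 DMSO replicate 1 or TM3 DMSO replicate 1.

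The ER stress response element, CCAAT and CCACG parted by 9 bases of any kind, was in 8 of the 19 windows of this list on either strand, 42.1%, against 14 of 9861 windows, 0.142%. It contains the CCAAT counted above. The windows of Hspa5 (chr2:34771840-34772139, plus strand) and of Creld2, an ER-resident stress protein (chr15:88819396-88819695, plus strand), are given with the element in capitals, which in Creld2 lies on the other strand.
Hspa5: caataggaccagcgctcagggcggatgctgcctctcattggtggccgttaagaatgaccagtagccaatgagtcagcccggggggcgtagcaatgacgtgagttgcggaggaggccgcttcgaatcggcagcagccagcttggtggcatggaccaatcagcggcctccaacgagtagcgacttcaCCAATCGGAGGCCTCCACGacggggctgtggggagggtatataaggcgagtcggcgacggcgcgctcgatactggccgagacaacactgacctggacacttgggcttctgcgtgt
Creld2: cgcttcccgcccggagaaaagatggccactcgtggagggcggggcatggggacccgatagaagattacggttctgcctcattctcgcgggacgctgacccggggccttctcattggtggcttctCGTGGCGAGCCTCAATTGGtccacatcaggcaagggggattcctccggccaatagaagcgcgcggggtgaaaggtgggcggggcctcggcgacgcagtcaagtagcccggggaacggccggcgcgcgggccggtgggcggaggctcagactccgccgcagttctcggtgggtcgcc
Creld2 had 151 CPM in TM4 MEHP and 31.7 CPM in TM3 MEHP, with a gap of 2.25 under MEHP and 2.54 under DMSO. Its change of gap no longer passed without any 1 of several libraries (edgeR adjusted p of 0.0513 to 0.0793). These were TM4 MEHP replicate 1, TM3 MEHP replicate 3, TM4 DMSO replicates 2 and 3, and TM3 DMSO replicate 2.

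Targets of ATF4, the transcription factor of the integrated stress response, were also higher in TM4 and stayed so. Of 33 tested genes 31 were higher in TM4 MEHP, 27 of them more than 2-fold, against 39.9% and 14.3% of all tested genes. Lower was 1, Cebpb, against 40.4%, and Ddit4 did not pass. The median gap was 2.21 under MEHP and 2.16 under DMSO. Closer were 5 genes and further apart 7, against 15% and 6.90% of all tested genes. The number closer was 8 without TM3 DMSO replicate 1 and 3 without TM3 DMSO replicate 3. Atf4 itself stood at 1506 CPM in TM4 MEHP and 189 CPM in TM3 MEHP. Asns, which makes asparagine, had a gap of 2.92 under MEHP and 3.58 under DMSO. Aldh1l2, of mitochondrial folate metabolism, had 710, 558 and 590 CPM in TM4 MEHP and 43.8, 44.3 and 45.0 CPM in TM3 MEHP, and its gap of 3.80 ± 0.09 was smaller than the 4.70 ± 0.10 under DMSO. Fgf21, a secreted metabolic hormone that is a target of both ATF4 and PPAR alpha, went the other way. It had 20.6, 22.3 and 24.2 CPM in TM4 MEHP and 1.51, 1.50 and 1.88 CPM in TM3 MEHP, and 9.03, 6.96 and 10.5 CPM in TM4 DMSO against 2.67, 1.48 and 1.14 CPM in TM3 DMSO. The lines did not overlap, and the fold between them was 13.7 under MEHP and 4.97 under DMSO (change of log2 gap 1.46 ± 0.32, edgeR adjusted p = 0.00102).

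The letters TGATGNAAT, one form of the CEBP-ATF response element, were in 4 of 27 windows of this list on either strand, 14.8%, against 0.426% of all. The window of Fgf21 (chr7:45615441-45615740, minus strand) holds it on the other strand, in capitals.
Fgf21: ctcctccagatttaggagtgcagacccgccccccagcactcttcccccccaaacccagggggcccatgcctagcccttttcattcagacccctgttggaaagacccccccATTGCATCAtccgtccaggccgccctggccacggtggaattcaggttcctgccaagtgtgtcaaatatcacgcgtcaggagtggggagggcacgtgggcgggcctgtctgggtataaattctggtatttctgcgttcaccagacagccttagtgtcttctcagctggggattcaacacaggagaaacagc
The PPAR element, AGGTCA repeated after 1 base of any kind, on either strand, was in 0 of 25 windows of the PPAR targets and in 2 of 9861 windows, 0.0203%. That says only that these letters are not in those windows.

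Interferon-stimulated genes are the antiviral effectors induced by interferons. In TM4 MEHP 30 of 34 were higher, 26 of them more than 2-fold, against 39.9% and 14.3% of all tested genes. Those lower were Parp9, Parp14 and Eif2ak2. The median gap was 2.22 under MEHP and 2.18 under DMSO. The change passed with a positive sign in 12 genes and a negative one in 3, and 6 were closer, 8 further apart, or 5 without TM3 DMSO replicate 1, and 1 crossed. Over all tested genes 13.0% had a positive and 13.3% a negative change, and 15% were closer, 6.90% further apart and 4.38% crossed. Ifi44 had 57.1, 49.1 and 53.6 CPM in TM4 MEHP and 0.252, 0.239 and 0.0625 CPM in TM3 MEHP, and its mean in the DMSO groups was 26.9 CPM in TM4 and 0.496 CPM in TM3. Bst2, which tethers virus particles to the cell, was nearly level under DMSO with a gap of 0.16 and stood at 338 CPM in TM4 MEHP and 168 CPM in TM3 MEHP. Rsad2 had 47.8 CPM in TM4 MEHP and no count in either TM3 group. Of 11 tested genes of MHC class I presentation 10 were higher in TM4 MEHP and 0 lower, against 39.9% and 40.4% of all tested genes. The immunoproteasome gene Psmb8 had 17.7 CPM in TM4 MEHP and 0.533 CPM in TM3 MEHP.

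The core of the interferon response element, GAAA and GAAA parted by 2 bases of any kind, on either strand, was in 14 of 24 windows, 58.3%, against 3.08% of all. Ifit1, an RNA-binding antiviral protein, is shown because it had one of the widest gaps, with 109, 136 and 121 CPM in TM4 MEHP and 0.441, 0.120 and 0.250 CPM in TM3 MEHP. Its window (chr19:34640639-34640938, plus strand) holds the letters at 2 places on the other strand, in capitals.
Ifit1: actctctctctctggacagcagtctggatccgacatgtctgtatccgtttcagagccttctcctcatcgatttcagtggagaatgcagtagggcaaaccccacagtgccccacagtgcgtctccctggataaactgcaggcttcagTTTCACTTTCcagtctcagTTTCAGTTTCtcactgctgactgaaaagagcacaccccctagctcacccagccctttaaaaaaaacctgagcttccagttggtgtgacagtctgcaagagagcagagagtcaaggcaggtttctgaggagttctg
The gap of Ifit1 was 8.79 ± 0.16 under MEHP and 8.85 ± 0.15 under DMSO.

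**Figure D5:**
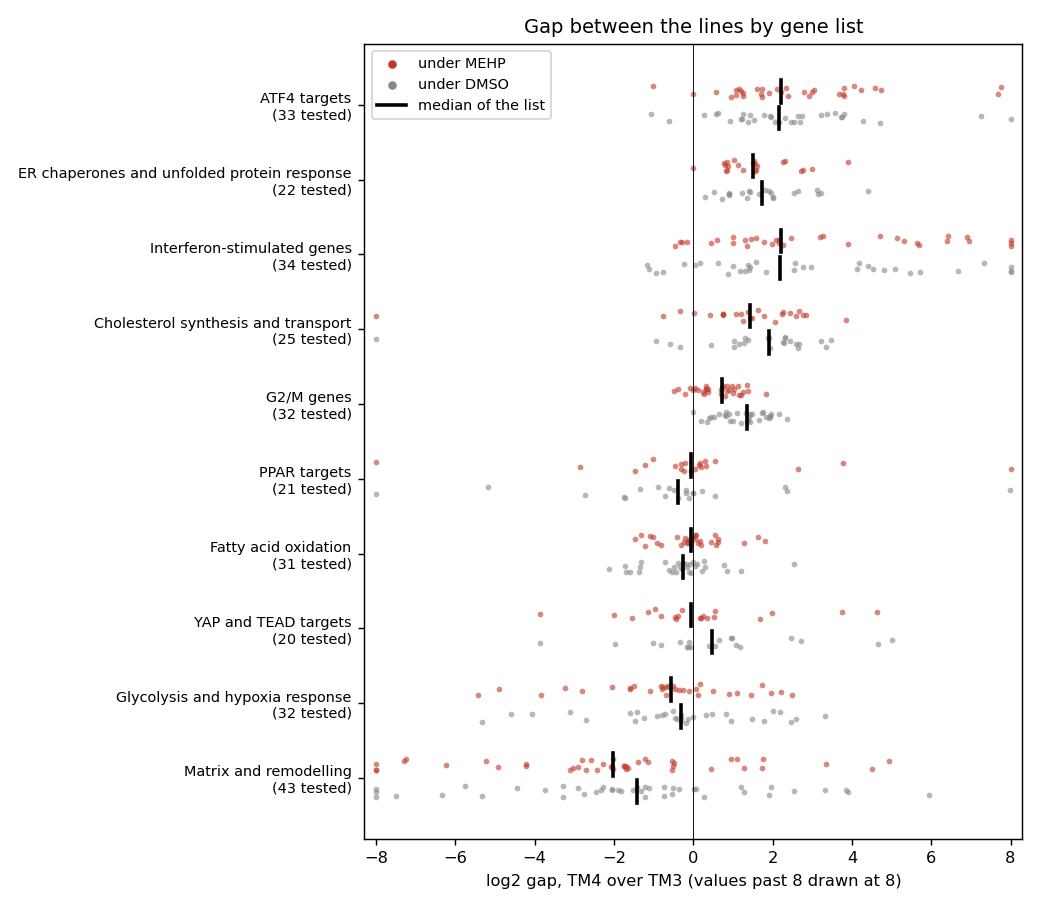
Log2 gap of TM4 over TM3 (horizontal axis, values past 8 drawn at 8) for the tested members of 10 gene lists, under MEHP (upper points) and under DMSO (lower points); black marks are list medians. The G2/M median stands at 0.72 under MEHP and 1.35 under DMSO, the matrix median at -2.03 and -1.42, and the ATF4 median at 2.21 and 2.16.

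Genes of cholesterol synthesis and uptake are induced by the factor SREBP2 when sterols are low. Of 25 tested, 21 were higher in TM4 MEHP and 13 were closer, against 39.9% and 15% of all tested genes. The median gap was 1.44 under MEHP and 1.90 under DMSO, and the summed level was 7874 CPM in TM4 MEHP and 2435 CPM in TM3 MEHP. The gap of Msmo1, a sterol oxidase of the late pathway, was 2.83 under MEHP and 3.35 under DMSO, and that of Hmgcs1, an early enzyme, 1.78 and 2.27. Pmvk, a kinase of the mevalonate pathway, was the 1 member further apart, with 128, 143 and 134 CPM in TM4 MEHP and 8.01, 9.21 and 10.9 CPM in TM3 MEHP. Those lower in TM4 MEHP were Mvk, Hsd17b7 and the sterol exporter gene Abca1, which had 0, 0.0550 and 0 CPM in TM4 MEHP and 87.3, 81.5 and 81.1 CPM in TM3 MEHP. Of 19 genes of fatty acid and triglyceride synthesis 11 were higher and 6 lower in TM4 MEHP, against 39.9% and 40.4% of all tested genes. Their median gap was 0.50 under MEHP and 0.54 under DMSO. The desaturase gene Scd1 had a gap of 2.31 under MEHP and 2.93 under DMSO, and Acaca, the carboxylase at the start of fatty acid synthesis, of -1.57 and -1.05.

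Extracellular matrix genes were mostly lower in TM4, and more of them stood further apart than closer under MEHP. Of 43 tested genes of matrix and its remodelling 34 were lower and 9 higher in TM4 MEHP, against 40.4% and 39.9% of all tested genes. More than 2-fold lower were 30, against 20.6% of all genes. The median gap was -2.03 under MEHP and -1.42 under DMSO. The change passed with a negative sign in 28 genes and a positive one in 2, Eln and Mmp14, against 13.3% and 13.0% of all tested genes. Further apart were 18 genes, closer 9 and crossed 3, against 6.90%, 15% and 4.38%. Those crossed were Col5a1, Mmp2 and Bgn. The summed level was 18723 CPM in TM4 MEHP and 55809 CPM in TM3 MEHP, and 27547 CPM in TM4 DMSO against 53731 CPM in TM3 DMSO. Thbs1, a matrix glycoprotein that binds many partners, had 134, 131 and 130 CPM in TM4 MEHP and 920, 900 and 929 CPM in TM3 MEHP, and 427, 384 and 448 CPM in TM4 DMSO against 898, 942 and 902 CPM in TM3 DMSO. The TM3 libraries overlapped between treatments and the TM4 libraries lay lower under MEHP, and the lines were 6.96-fold apart under MEHP and 2.18-fold under DMSO (change of log2 gap -1.68 ± 0.08, edgeR adjusted p = 1.60e-16). In mean CPM the difference was -785 under MEHP and -494 under DMSO.

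Col12a1, a fibril-associated collagen, had 2.37, 2.09 and 1.72 CPM in TM4 MEHP and 318, 301 and 319 CPM in TM3 MEHP, with a gap of -7.24 ± 0.09 against -5.76 ± 0.09 under DMSO. The gap of the fibrillin gene Fbn1 was -2.09 under MEHP and -0.74 under DMSO, that of Col1a1 -2.03 and -1.23, and that of fibronectin, Fn1, -1.76 and -0.75. Lox, the enzyme that crosslinks collagen, had 0.237, 0.275 and 0.345 CPM in TM4 MEHP and 2909, 2750 and 2813 CPM in TM3 MEHP, and its change of gap did not pass. Col11a1, a fibrillar collagen of cartilage, was the member above TM3 whose gap shrank most, with 232, 231 and 213 CPM in TM4 MEHP and 67.1, 67.0 and 67.0 CPM in TM3 MEHP. It was 3.36-fold apart under MEHP and 9.96-fold under DMSO, and its difference of mean CPM was 159 under MEHP and 344 under DMSO. Of the 9 closer genes TM4 was above TM3 in 7, among them Col11a1, Col5a2, Col6a3, Thbs2, Spp1 and Vcan, and below it in Eln and Mmp14. The call for Eln is one of those lost when 1 library is left out.

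Targets of YAP and TEAD, which follow cell tension and density, changed in the same sense. Of 20 tested 9 were higher and 10 lower in TM4 MEHP, against 39.9% and 40.4% of all tested genes. The median gap was -0.06 under MEHP and 0.47 under DMSO. All 13 changes that passed were negative, against 13.3% of all tested genes with a negative change. Closer were 8 genes, further apart 4, or 7 without TM4 MEHP replicate 1, and Tead1 crossed. Over all tested genes 15% were closer, 6.90% further apart and 4.38% crossed. Crim1, a membrane protein that binds growth factors, had 110, 115 and 97.3 CPM in TM4 MEHP and 321, 302 and 328 CPM in TM3 MEHP, and its gap was -1.56 ± 0.06 under MEHP and -0.16 ± 0.06 under DMSO. Cyr61, a secreted matricellular protein, had a gap of 1.99 under MEHP and 2.72 under DMSO, and Amotl2 of 0.24 and 1.07. The letters CATTCC, bound by TEAD factors, were in 7 of 15 windows of this list (46.7%) and in 3 of 29 of the matrix list (10.3%), against 11.9% of all. Of 13 tested myoid and fibroblast markers, 5 are in the matrix list. All 8 of their changes that passed were negative, against 13.3% of all tested genes with a negative change. In TM4 MEHP 5 markers were higher and 7 lower, against 39.9% and 40.4% of all tested genes. Closer were 5 markers, or 3 without TM3 MEHP replicate 3, against 15% of all tested genes. Further apart were 3, against 6.90%. Among these Dcn had 22.9 CPM in TM4 MEHP and 702 CPM in TM3 MEHP, with a gap of -4.93 against -3.74 under DMSO. Acta2, smooth muscle actin, had 200, 209 and 230 CPM in TM4 MEHP and 38.6, 39.5 and 38.7 CPM in TM3 MEHP, 5.47-fold apart under MEHP and 16.2-fold under DMSO.

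Lists of signalling genes held closer genes and genes further apart. Among 22 tested chemokine, acute-phase and NF-kB genes 4 were closer and 5 further apart. In the TGF-beta and BMP pathway it was 5 and 4 of 22, and in the Wnt pathway 3 and 3 of 23. Over all tested genes 15% were closer and 6.90% further apart. Cxcl12, a chemokine of stromal cells, had 11.9, 17.1 and 13.2 CPM in TM4 MEHP and 1409, 1393 and 1427 CPM in TM3 MEHP, and the lines were 99.9-fold apart under MEHP and 34.7-fold under DMSO. Of 22 tested chemokine, acute-phase and NF-kB genes 7 were higher and 13 lower in TM4 MEHP, against 39.9% and 40.4% of all tested genes. Relb, a subunit of NF-kB, crossed, with 35.8, 30.5 and 32.4 CPM in TM4 MEHP and 19.6, 19 and 15.8 CPM in TM3 MEHP, a gap of 0.86 ± 0.10 against -0.31 ± 0.10 under DMSO. The chemokine gene Ccl5 had 45.6 CPM in TM4 MEHP and no count in TM3 MEHP. Of 22 genes of the TGF-beta and BMP pathway 3 were higher and 16 lower in TM4 MEHP, against 39.9% and 40.4% of all tested genes. Bmp4 had 0.0367 CPM in TM4 MEHP and 102 CPM in TM3 MEHP. Of 23 genes of the Wnt pathway 5 were higher and 17 lower in TM4 MEHP, against the same 39.9% and 40.4%. Wnt4 stood at 0.228 CPM in TM4 MEHP and 88.7 CPM in TM3 MEHP, and the inhibitor gene Dkk2 at 52.2 CPM in TM4 MEHP and 0 in TM3 MEHP.

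Energy genes were split. Of 32 genes of glycolysis and the hypoxia response 8 were higher and 21 lower in TM4 MEHP, with a median gap of -0.57 under MEHP and -0.32 under DMSO, 5 closer and 9 further apart. Over all tested genes 39.9% were higher, 40.4% lower, 15% closer and 6.90% further apart. Ldha, lactate dehydrogenase, stood at 418 CPM in TM4 MEHP and 597 CPM in TM3 MEHP with a gap of -0.51 against -0.14 under DMSO. Ero1l, which oxidizes protein disulfides in the ER, had a gap of 2.48 under MEHP and 3.31 under DMSO, and Pfkp, of the committed step of glycolysis, of 0.50 and 1.49. Car12, a carbonic anhydrase, had 26.9, 29.1 and 24.7 CPM in TM4 MEHP and 16.1, 14.1 and 13.5 CPM in TM3 MEHP, with a gap of 0.89 ± 0.09 against 2.47 ± 0.10 under DMSO. The mitochondrial genome gave 1.48% ± 0.0252 of all counts in TM4 MEHP and 1.80% ± 0.0178 in TM3 MEHP (SD, n = 3). Of its 12 tested respiratory genes 11 were lower in TM4 MEHP, against 40.4% of all tested genes, with mt-Co1 the exception. Nuclear respiratory genes had a median gap of 0.22 under MEHP and 0.05 under DMSO, and the change of gap passed for 3 of 33, against 26.3% of all tested genes.

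Enzymes that handle foreign chemicals were lower in TM4 MEHP in 13 of 20 cases and higher in 6, against 40.4% and 39.9% of all tested genes. The dioxin receptor gene Ahr stood at 0.321 CPM in TM4 MEHP and 113 CPM in TM3 MEHP, and the retinal dehydrogenase gene Aldh1a1 at 52.7 and 520 CPM. Of 31 NRF2 targets, genes of antioxidant defence, 12 were higher and 15 lower, near the 39.9% and 40.4% of all tested genes, with median gaps of 0.07 under MEHP and -0.22 under DMSO. Homeobox genes of the Hox clusters, which record position along the body, were higher in TM4 MEHP in 16 and lower in 15 of 34 tested cases, near the 39.9% and 40.4% of all tested genes. Hoxc11 had 31.6 CPM in TM4 MEHP and 0.0210 CPM in TM3 MEHP, while Hoxc8 of the same cluster had 0.677 and 96.6 CPM.

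Other large changes of the gap fell outside these groups. Fabp5, a fatty acid binding protein, had 21.9, 26.2 and 26.2 CPM in TM4 MEHP and 9.21, 9.03 and 10.3 CPM in TM3 MEHP, 2.61-fold apart under MEHP and 8.63-fold under DMSO. The secreted protein gene Crispld2 had 4.03, 4.51 and 3.04 CPM in TM4 MEHP and 1.45, 1.68 and 2.75 CPM in TM3 MEHP, with a gap of 0.98 ± 0.23 against 3.30 ± 0.23 under DMSO. In both genes the exposed lines were nearer, and their libraries still did not overlap. Fhl1, a protein of muscle with LIM domains, had 19.3, 18.9 and 18.3 CPM in TM4 MEHP and 94.9, 99.3 and 94.1 CPM in TM3 MEHP, 5.11-fold apart under MEHP and 1.41-fold under DMSO. Ptchd4 had 2.08, 1.65 and 1.67 CPM in TM4 MEHP and 7.32, 8.85 and 9.19 CPM in TM3 MEHP, with a gap of -2.23 ± 0.19 against -0.30 ± 0.18 under DMSO. Both stood further apart under MEHP, with TM4 below TM3. Under DMSO the Ptchd4 groups overlapped and the gap did not pass, while the Fhl1 groups did not overlap. The rest of the genes chosen by size of change were Slc10a3 and Ypel1, which were closer with TM4 below TM3, Map3k7cl, which was further apart, and Uap1l1 and the ribosomal RNA methyltransferase gene Mrm3, which crossed to TM4 above TM3.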

How the data were processed

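RNA-seq of 12 libraries in 4 groups of 3 was analysed. The values are raw counts per gene in a table deposited by the authors. HISAT2 2.0.5, StringTie 1.3.3b, featureCounts 1.5.0-p3 and mm10 are named per the submitters' processing notes, while the sources used here give no strand or multi-mapping options. From the deposited counts, edgeR 4.0.16 (R 4.3.3) fitted all 12 libraries with 4 group terms, TMM factors, the filterByExpr filter (15700 genes left) and robust quasi-likelihood F-tests with Benjamini-Hochberg adjustment at 0.05. Gaps past 2-fold came from glmTreat, and intervals from limma 3.58.1. A gap counted as closer, further apart or crossed where its change passed and the gap was called under MEHP or DMSO. Crossed means opposite signs of the 2 fitted gaps, also where only 1 of them was called. ± after a log2 value is the SE. Promoter windows are from RefSeq, GRCm38.p6. Alternatives were upper-quartile or RLE factors, testing without a filter, a filter of 1 CPM in 3 libraries, DESeq2 1.42.0, limma-voom, glmTreat against 1.2-fold, an adjusted p under 0.01, a replicate block, the 6 libraries compared alone, and leaving out each library. The procedure was tested on simulated data.

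Genes were named by size of gap (8 each way), absence from one line (6 each way), size of change (8 closer, 8 further apart, 5 crossed) and, per list, up to 4 by gap and 3 by change. Other list members are examples chosen after their values were seen, and the comparison and lists were chosen with earlier results of these data known. Some genes that these rules pick are not reported here.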

Additional observations from a re-analysis of the deposited data

Results flagged for a closer look

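The gap between TM4 and TM3 differed between MEHP and DMSO, by the test of that difference itself, for 4134 genes. The genes singled out by size among them are given here as the log2 gap under MEHP minus the log2 gap under DMSO. Among genes closer under MEHP it was 3.72 for Angptl4, -2.32 for Crispld2, -1.73 for Fabp5, 1.71 for Slc10a3, -1.58 for Car12, -1.57 for Acta2, -1.57 for Col11a1 and 1.56 for Ypel1. Among genes further apart it was -1.93 for Ptchd4, -1.86 for Fhl1, -1.68 for Thbs1, -1.53 for Cxcl12, -1.48 for Col12a1, 1.46 for Fgf21, -1.40 for Crim1 and -1.36 for Map3k7cl. Among genes with crossed order it was 1.18 for Plin2, 1.16 for Relb, 1.14 for Uap1l1 and 1.14 for Mrm3.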

How the results depend on the processing

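No fold change of the genes named reversed sign under the alternatives run where it passed in the reported fit or in the alternative. Sign changes of values that passed in neither were not counted. The change of gap was not followed for genes at 0 in an exposed line. The near-even balance of calls did turn, with 2178 positive and 1991 negative changes of gap under upper-quartile factors (2044 and 2090 as reported), and 5986 genes higher and 5960 lower in TM4 MEHP with the 1 CPM filter (6270 and 6339 as reported). With the change of gap tested against 1.2-fold, 1481 genes passed, with 901 closer, 303 further apart and 232 crossed. At an adjusted p under 0.01 it passed for 2588 genes, with 1512 closer, 636 further apart and 428 crossed. Both settings are stricter by construction. Leaving out each library in turn gave 12389 to 12867 genes called under MEHP, 5446 to 5678 of them past 2-fold, and 12757 to 13261 under DMSO. The change of gap then passed for 3458 to 4388 genes, with 1989 to 2336 closer, 864 to 1260 further apart and 572 to 785 crossed. Of 276 results for the genes named, 227 stayed on the same side of the threshold throughout. Library scaling moved the median gap of all genes by at most 0.04. Across all pairs of groups, deviations of same-numbered libraries correlated at -0.0761 to 0.12 and those of other numbers at -0.12 to 0.13. Between TM4 MEHP and TM4 DMSO the same numbers gave 0.114, 0.0277 and 0.12, and other numbers -0.12 to 0.00674. Whether libraries were paired by number was thus not settled. With a replicate block 12647 genes were called under MEHP, 5471 of them past 2-fold, 12908 under DMSO, and the change of gap passed for 4366. Counting limits what can be said of genes at 0 in a line, whose folds are bounds.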
